A study of Mus musculus with 108 samples.

Results

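Stretches of liver chromatin that carried no measured mark at 3 months and the Polycomb mark at 12 months, under both diets, were extracted from the chromatin state maps. Polycomb repressive complex 2 places the mark H3K27me3 on nucleosomes of silent genes, and the complex also binds the mark it has placed, through which the mark is copied and spreads along chromatin. In adult liver the classical targets are genes of other lineages, among them Hox genes, homeobox factors and neuronal genes, which hepatocytes keep silent. DNA rich in unmethylated CpG is the usual landing site of the complex in mammals.

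The study profiled H3K4me3, H3K27me3, H3K27ac and H3K4me1 by ChIP-seq in livers that had been fixed in formalin and embedded in paraffin, all from female C57BL/6 mice. SD 3m mice ate a standard diet and were 3 months old (8 mice, 30 libraries), SD 12m mice ate the same diet until 12 months (8 mice, 29 libraries), and CR 12m mice were given 30% fewer calories from 3 months on and were 12 months old (9 mice, 29 libraries). The SD 6m group was not analysed here. All libraries of a group had been merged by the authors, and ChromHMM had given each 200 bp bin 1 of 8 states. State 6, H3K27me3 alone, is the repressed Polycomb state, state 8 is the quiescent state with no mark, states 1 to 5 are active or poised promoters and enhancers, and state 7 covers repeats. Whole liver holds several cell types, so fewer cells with a mark and less of the mark per cell cannot be told apart.

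The members were selected on the state labels themselves: autosomal bins in state 8 in SD 3m and in state 6 in both SD 12m and CR 12m, merged where adjacent, with stretches of 1 kb or more kept. The rule found 7867 stretches, out of 350775 autosomal stretches of 1 kb or more with 1 combination of states over the 3 groups. Their change of state is therefore how they were chosen and not a result. What follows describes their size, surroundings, genes and sequence. The rule did not use genes or sequence, and limits it sets on size and surroundings are stated in place. Each group had 1 map, so no test across mice was possible, and the 19 autosomes give the only spread. H3K27me3 libraries numbered 7, 8 and 6 for SD 3m and the 12-month groups SD 12m and CR 12m, the merged depth is unknown, and the part of either in the choice of members was not tested. The maps carried the labels of liver: start sites of 10 of 10 hepatocyte markers lay in states 1 to 5 in every group, and those of 35, 39 and 36 of 46 classical Polycomb targets lay in state 6 in SD 3m, SD 12m and CR 12m.

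Sequences from the reference genome (RefSeq, GRCm38.p6, which matches the mm10 build of the maps) show what kind of DNA the stretches hold. The first 4 are the 250 bases before the transcription start site (TSS) of genes that start within some of the longest stretches, and the last 2 are the middle bins of 2 of the 3 longest stretches. CpG dinucleotides are in capitals, and everything else is in lower case, from 5′ to 3′.
Neurod6 promoter (chr6:55681264-55681513, minus strand): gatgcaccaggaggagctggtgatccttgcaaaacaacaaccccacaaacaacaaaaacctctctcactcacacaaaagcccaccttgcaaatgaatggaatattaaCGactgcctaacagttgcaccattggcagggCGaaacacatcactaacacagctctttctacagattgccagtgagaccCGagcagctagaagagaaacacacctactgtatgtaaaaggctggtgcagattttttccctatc
Lhcgr promoter (chr17:88792015-88792264, minus strand): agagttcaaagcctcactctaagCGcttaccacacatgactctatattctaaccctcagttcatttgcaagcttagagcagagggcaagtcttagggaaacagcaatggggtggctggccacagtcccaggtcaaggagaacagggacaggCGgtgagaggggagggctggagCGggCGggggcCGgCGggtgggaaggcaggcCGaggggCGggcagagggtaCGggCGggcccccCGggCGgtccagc
Pcsk2 promoter (chr2:143545883-143546132, plus strand): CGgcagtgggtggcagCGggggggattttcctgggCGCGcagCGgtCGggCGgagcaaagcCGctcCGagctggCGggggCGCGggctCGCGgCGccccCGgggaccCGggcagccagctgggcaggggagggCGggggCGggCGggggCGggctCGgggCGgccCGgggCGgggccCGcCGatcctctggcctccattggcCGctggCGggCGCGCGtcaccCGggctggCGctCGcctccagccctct
Tnni3k promoter (chr3:155055408-155055657, minus strand): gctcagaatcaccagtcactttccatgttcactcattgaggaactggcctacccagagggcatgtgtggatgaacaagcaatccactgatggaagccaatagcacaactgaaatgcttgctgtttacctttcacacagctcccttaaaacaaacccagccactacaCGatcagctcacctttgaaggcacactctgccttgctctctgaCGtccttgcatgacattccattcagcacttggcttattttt
Lypd6b intron bin (chr2:49876001-49876200, plus strand): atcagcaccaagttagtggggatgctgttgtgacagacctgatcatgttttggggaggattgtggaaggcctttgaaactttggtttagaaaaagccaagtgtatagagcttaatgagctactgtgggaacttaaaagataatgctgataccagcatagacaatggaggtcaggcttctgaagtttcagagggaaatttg
Ntrk3 middle bin (chr7:78555601-78555800, plus strand): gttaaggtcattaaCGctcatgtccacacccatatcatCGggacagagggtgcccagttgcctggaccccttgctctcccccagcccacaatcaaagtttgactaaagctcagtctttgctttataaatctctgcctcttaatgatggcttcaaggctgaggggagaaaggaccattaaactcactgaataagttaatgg

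The 4 promoters differed widely in CpG content. Pcsk2, a prohormone convertase of neuroendocrine cells, had 35 CpG and 82.4% GC in these 250 bases. Lhcgr, the luteinizing hormone receptor of the gonads, had 12 CpG. Neurod6, a basic helix-loop-helix factor of cortical neurons, had 3, and Tnni3k, a kinase of cardiac muscle, had 2. The bins from within the stretches held 0 CpG (Lypd6b) and 2 CpG (Ntrk3).

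The stretches covered 77.3 Mb, or 3.14% of autosomal bins. Of the 8122212 autosomal bins in state 8 in SD 3m, 4.78% met the rule before the length limit, and 99.5% of the bins that met it lay in stretches of 1 kb or more. State 6 was reached by 11.3% of the same state 8 bins in SD 12m and by 7.38% in CR 12m, 2 comparisons that share the SD 3m map. The bins that met the rule made up 42.2% of those of SD 12m and 64.8% of those of CR 12m. The stretches amounted to 25.4% of the 304.8 Mb of autosomal state 6 in SD 12m and to 33.3% of the 232.1 Mb in CR 12m, against 203.5 Mb in state 6 in SD 3m. A sizeable part of the Polycomb state of either 12-month map thus lay on bins that were unmarked in the young map.

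Stretches were short in the main, with a long tail. Their median length was 6800 bp (lower quartile 3400 bp, upper quartile 12400 bp), and the longest measured 127400 bp. The 907 stretches of 20 kb or more, 11.5% of all, held 37.0% of the bases, and 82 stretches reached 50 kb. At the length limit, 173 runs measured 1000 bp and were kept, and 171 runs measured 800 bp and were left out. Of these, 57.2% and 44.4% touched state 6 of SD 3m.

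**Figure D1:**
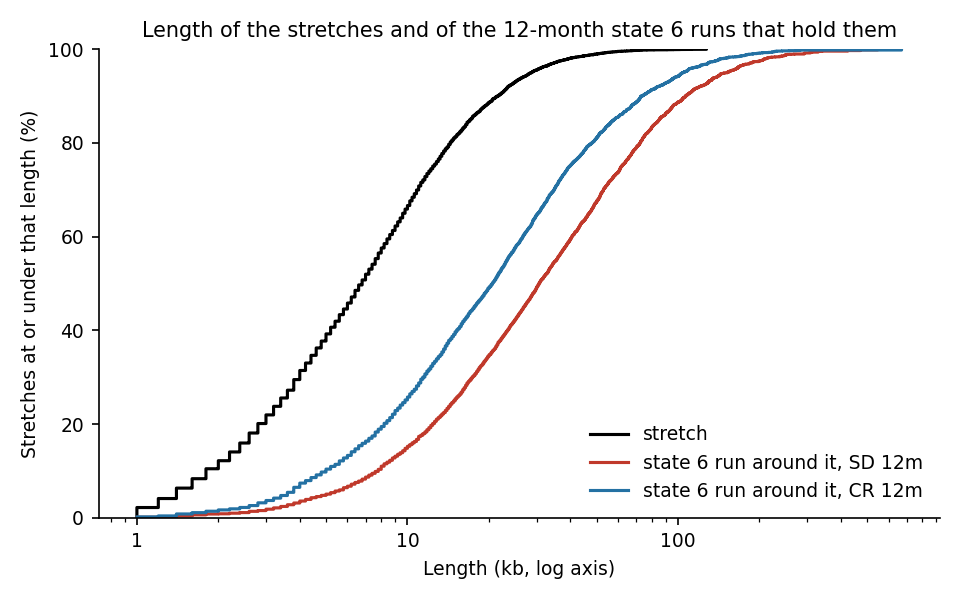
Cumulative share of the 7867 stretches (vertical axis, %) at or under a given length (horizontal axis, kb, log axis). The black line is the stretch itself (median 6800 bp). The coloured lines are the run of state 6 that holds it in SD 12m (median 30600 bp over stretches) and in CR 12m (median 20600 bp). A run cannot be shorter than its stretch and counts once for each stretch it holds.

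Every autosome held stretches, in unequal amounts. The share of state 8 bins of SD 3m that lay in them ran from 1.63% on chromosome 19 to 9.36% on chromosome 11, with 8.28% on chromosome 9 and 8.23% on chromosome 2 next below the highest. Chromosome 2 held the most, 815 stretches and 8.78 Mb, and chromosome 19 the fewest, 80 stretches and 0.599 Mb. On each of the 19 autosomes more state 8 bins were in state 6 in SD 12m than in CR 12m. On chromosome 19 these shares were 10.6% and 2.10%, and on chromosome 2 they were 14.6% and 12.7%.

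**Figure D2:**
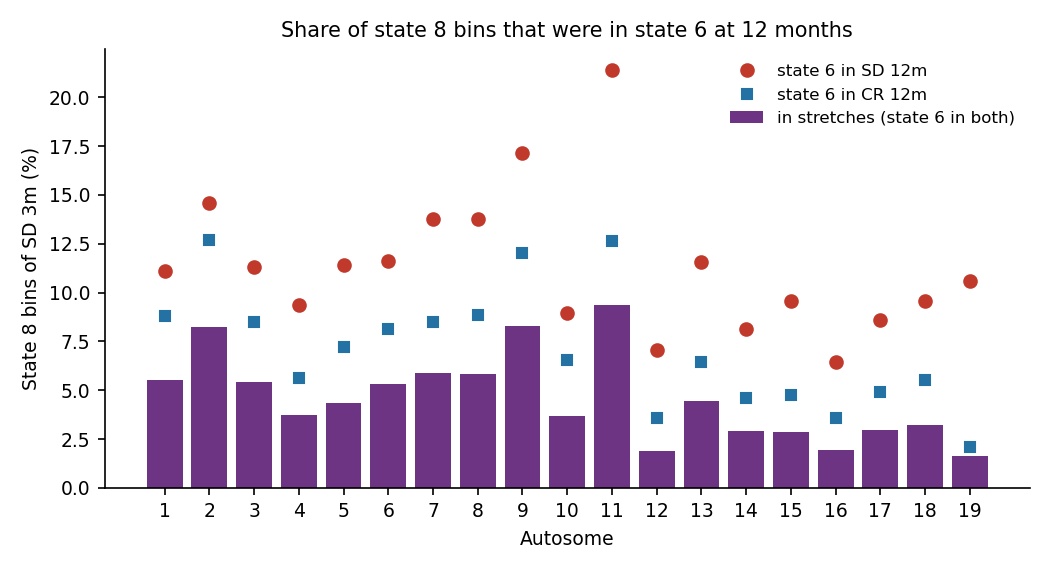
Share of the state 8 bins of SD 3m (vertical axis, %) on each autosome that lay in stretches (bars) or were in state 6 in SD 12m (circles) or CR 12m (squares). Bars run from 1.63% on chromosome 19 to 9.36% on chromosome 11, and circles lie above squares on every autosome.

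Along chromosomes the stretches were clustered. Of 2473 blocks of 1 Mb, 905 held no base of a stretch and 217 held 100 kb or more, and the 247 blocks richest in them held 52.2% of the bases. The richest block, on chromosome 3 from 154000001 to 155000000, held 426.8 kb in stretches, of 784.6 kb in state 8 in SD 3m. Its protein-coding genes are Slc44a5, Lhx8, a LIM homeobox factor of forebrain cholinergic neurons, Tyw3, Cryz, Erich3 and Tnni3k. The next, on chromosome 1 from 158000001 to 159000000, held 394.4 kb and the neuronal genes Brinp2 and Astn1 beside Pappa2, a protease of insulin-like growth factor binding proteins. A block on chromosome 2 from 123000001 to 124000000 held 383.8 kb and no curated protein-coding gene. The block on chromosome 11 from 66000001 to 67000000 held 373.6 kb with Dnah9, Shisa6 and Pirt, and that on chromosome 14 from 104000001 to 105000000 held 356.6 kb with Pou4f1, a POU homeobox factor of sensory neurons, and Obi1.

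A minority of the stretches bordered Polycomb chromatin of the young liver. At 1 edge, 2771 stretches touched a bin in state 6 in SD 3m, 546 touched one at both edges, and 4550 (57.8%) touched none, which makes 42.2% touching at any edge (31.9% to 50% over autosomes). A further 374 lay within 5 kb of such a bin, 2341 lay between 5 and 100 kb away, and 1835 (23.3%) lay over 100 kb away. Stretches between 2 pieces of old state 6 were the longest, with a median of 10000 bp, against 5800 bp for those touching at 1 edge and 6800 bp for those touching at none. GC content followed the same order of contact, at 45.8%, 44.2% and 41.9%, and was 40.6% in stretches over 100 kb away.

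The bin beyond each of the 15734 edges showed how the 2 maps of 12 months parted. At 6736 edges (42.8%) state 6 went on in SD 12m only, at 4213 (26.8%) it went on in CR 12m only, and at 3863 (24.6%) the next bin was already in state 6 in SD 3m. At 476 edges (3.03%) the next bin had been the poised enhancer state, state 5, in SD 3m and was in state 6 in both later maps. At 144 edges (0.915%) state 6 ended in both 12-month maps at the same bin. A stretch ends where any of the 3 maps changes, so some change at each edge is set by the rule, but which map changed is not.

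State 6 remained frequent far beyond the edges of a stretch. At 10 kb from an edge, 20.7%, 49.96% and 36.7% of positions were in state 6 in the SD 3m map, the SD 12m map and the CR 12m map, against 8.26%, 12.4% and 9.42% of all autosomal bins. At 50 kb these shares were 16.3%, 42.1% and 32.9%. The surroundings were thus above the autosomal share in every map, the young one included. Positions in other stretches were not left out. The rule sets those to state 6 in both 12-month maps and to state 8 in SD 3m. The 12-month shares are therefore partly set by the choice of members.

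**Figure D3:**
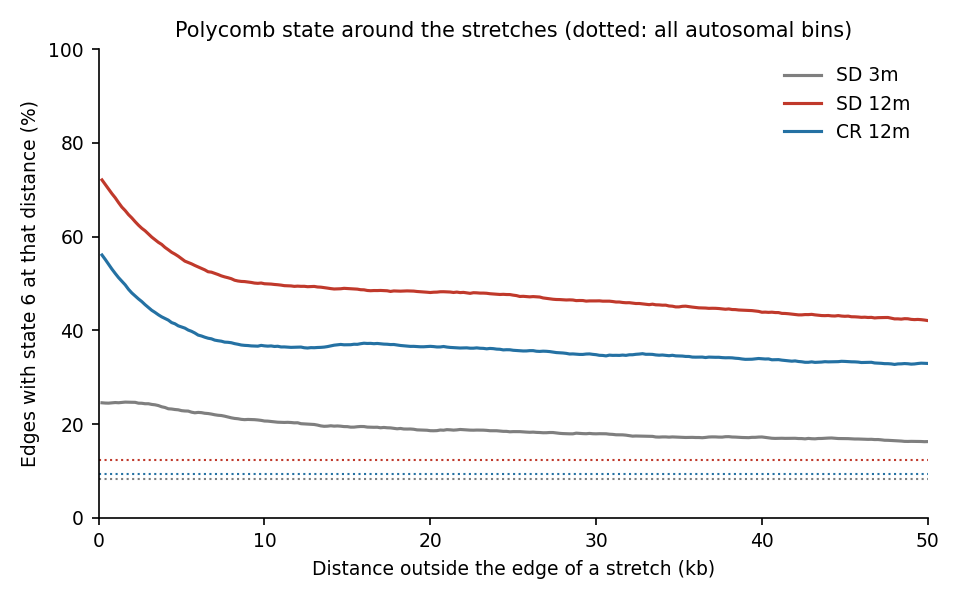
Share of stretch edges (vertical axis, %) with state 6 at a distance outside the stretch (horizontal axis, kb) in SD 3m, SD 12m and CR 12m, with the autosomal share of each map as a dotted line. At 10 kb the lines stand at 20.7%, 49.96% and 36.7%, and all 3 stay above their dotted lines to 50 kb. Positions in other stretches, in state 6 at 12 months by the rule, are included.

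The state 6 runs of 12 months that held the stretches were measured next. By the rule such a run cannot be shorter than its stretch, so only its extent is described. In SD 12m they lay in 5671 unbroken runs of state 6 with a median length of 22400 bp, and in CR 12m in 6245 runs with a median of 15800 bp. The run around a stretch was longer in SD 12m for 4983 stretches (63.3%), longer in CR 12m for 2835 (36.0%) and equal for 49. Of these runs, 56.6% in SD 12m and 60.8% in CR 12m held no bin in state 6 in SD 3m. Runs with old state 6 in them were longer, with medians of 36400 bp and 29400 bp, than runs without, with medians of 15800 bp and 10800 bp. New runs and enlarged old ones were therefore both common. A long run has more room for a bin of old state 6, and the part of this in the medians was not tested.

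Runs in state 6 in both 12-month maps showed both forms by name. The run with most stretch bases, chr2:49787401-49937400, measured 150000 bp within Lypd6b, a membrane-anchored Ly6-family modulator of nicotinic receptors, and 7.07% of it had been in state 6 in SD 3m. The run over Neurod6, chr6:55659401-55798600, measured 139200 bp, of which 3.45% had been in state 6. The run around Sox1, a neural progenitor factor, measured 546800 bp and had been in state 6 over 77.2% of its length, so there stretches filled gaps. In the run at the 3′ part of Cpne4, a calcium-dependent phospholipid-binding protein, 18.8% had been in state 6, and in a run of 228800 bp on chromosome 7 without a protein-coding gene 50% had been.

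A minority of the stretches overlapped a curated gene. With each gene given by its longest curated transcript, 660 stretches (8.39%) held a TSS, 2750 (35.0%) lay in a gene body without a TSS and 4457 (56.7%) overlapped no curated gene. By any annotated gene, predicted ones included, 3464 (44.0%) overlapped none. Introns took 36.7% of stretch bases and exons 1.91%, against 30.6% and 1.80% of all state 8 bases of SD 3m. Stretches with a TSS had a median length of 10200 bp, against 6600 bp in gene bodies and 6400 bp outside genes, and a long stretch has more room for a TSS.

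Beside other stretches of the same maps, these were intermediate in TSS and CpG density between unmarked and long-standing Polycomb chromatin, but not in every measure. TSS numbered 9.55 per Mb in the stretches, 6.44 per Mb in those that were in state 6 in SD 12m only, 17.2 per Mb where state 6 stood in all 3 maps and 3.92 per Mb where state 8 did. The value of the stretches was above the SD 12m-only value on 18 of 19 autosomes and below that of constant state 6 on 19 of 19. CpG numbered 8.86, 7.59, 10.9 and 7.55 per kb in the same order, with the stretches above SD 12m-only on 19 of 19 autosomes and below constant state 6 on 19 of 19. The assembled autosomes had 8.51 CpG per kb, so the stretches lay near the genome value. Their observed to expected CpG ratio was 0.192, against 0.194 for the autosomes. GC content was 43.0% in the stretches and 41.7%, 44.3% and 41.1% in the others. Repeats, read as the masked bases of the reference, made up 23.9% of stretch bases and 39.4% of bases constant in state 8, with lower values in the stretches on 19 of 19 autosomes. The other sets in state 6 at 12 months were also low in repeats, with 25.1% where state 6 was constant, 26.3% in SD 12m-only and 28.1% in CR 12m-only stretches. Gene bodies took 38.6% of stretch bases, above both the 36.0% of constant state 6 and the 33.7% of constant state 8. A CpG-rich bin, by the GC and CpG limits given below for promoters, lay in 18.3% of stretches. This was under both the 32.5% of constant state 6 and the 23.5% of constant state 8 stretches, which were longer. Per Mb such bins were intermediate, at 42.8 in the stretches, 91.9 in constant state 6 and 30.7 in constant state 8. The stretches were above constant state 8 on 19 of 19 autosomes and below constant state 6 on 19 of 19. The authors removed poorly mapped reads, and the part of mappability in the repeat shares was not tested.

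The nearest promoter of the stretches had more often been Polycomb-marked in young liver. The closest protein-coding TSS was in state 6 in SD 3m for 24.1% of stretches, against 17.97% for SD 12m-only and 18.5% for CR 12m-only stretches and 10.1% for constant state 8, with the stretches higher on 19 of 19 autosomes in each case. It lay at a median of 75834 bp from the midpoint of the stretch, against 106240.5 bp for SD 12m-only, 91547 bp for CR 12m-only and 102206.5 bp for constant state 8 stretches. Touching of old state 6 was 42.2% in the stretches, 15.9% in SD 12m-only and 15.3% in CR 12m-only stretches, but these are not on an equal footing. A neighbour with state 6 in all maps differs from a stretch in 1 map and from a diet-specific one in 2. The part of this, and of the distance to the TSS, in the shares for the nearest TSS was not tested.

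Start sites of 605 protein-coding genes lay in a stretch, which is 3.02% of 20021 autosomal ones and 11.9% of the 5096 with the TSS in state 8 in SD 3m. Bodies of 1559 genes (7.79%) held a base of a stretch. For 954 of these the TSS lay outside the stretches, and in 46.0% of them it was already in state 6 in SD 3m, in 60.1% in SD 12m and in 49.5% in CR 12m. Among the 18462 genes without a stretch these shares were 8.45%, 8.60% and 6.69%. Genes whose body held a stretch were long, with a median of 77517.5 bp, against 15636.5 bp for genes without one, and a long body has more room for a stretch.

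The TSS of Neurod6 (chr6:55677818-55681263, minus strand) lay in the longest stretch of all, 127400 bp. Its whole body lay in that stretch too, so the states of the body were set by the rule. Ntrk3, the neurotrophin-3 receptor TrkC (chr7:78192114-78577838, minus strand), started within a stretch of 112200 bp. State 6 covered 0% of its body in SD 3m, and 52.6% and 31.2% in SD 12m and CR 12m, so the part downstream of the stretch was more often marked under the standard diet. Lhcgr started in a stretch of 67600 bp, and state 6 covered 9.45%, 100% and 79.6% of its body in SD 3m, SD 12m and CR 12m. Of its 54741 bp, 43614 bp lay in that stretch, and stretches held 114925 bp of the 385725 bp of Ntrk3. Such bases are in state 6 in both later maps by the rule, which in large part sets the later shares. Only the difference between the diets is free of it.

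Most of the other genes of that rank had more state 6 over the body in SD 12m than in CR 12m, but not all. Here too, stretch bases count in both later shares by the rule. Wscd2 started in a stretch of 73200 bp and went from 11.3% of the body in state 6 to 74.2% and 58.8% in SD 12m and CR 12m. Pcsk2, whose CpG-rich promoter is printed above, went from 17.3% to 64.0% and 65.2%, with no lead of either diet. Igsf9b, an adhesion molecule of inhibitory synapses, went from 0% to 29.7% and 49.1%, higher under caloric restriction. Tnni3k, Phactr3, Itprid1 and Gm39653 completed the 10, with stretches of 55000, 54800, 54200 and 48800 bp at the TSS. In SD 12m and CR 12m, state 6 covered 85.1% and 79.8% of Tnni3k, 70.6% and 58.0% of Phactr3, and 57.6% and 44.1% of Itprid1. Gm39653 lay wholly in its stretch.

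**Figure D4:**
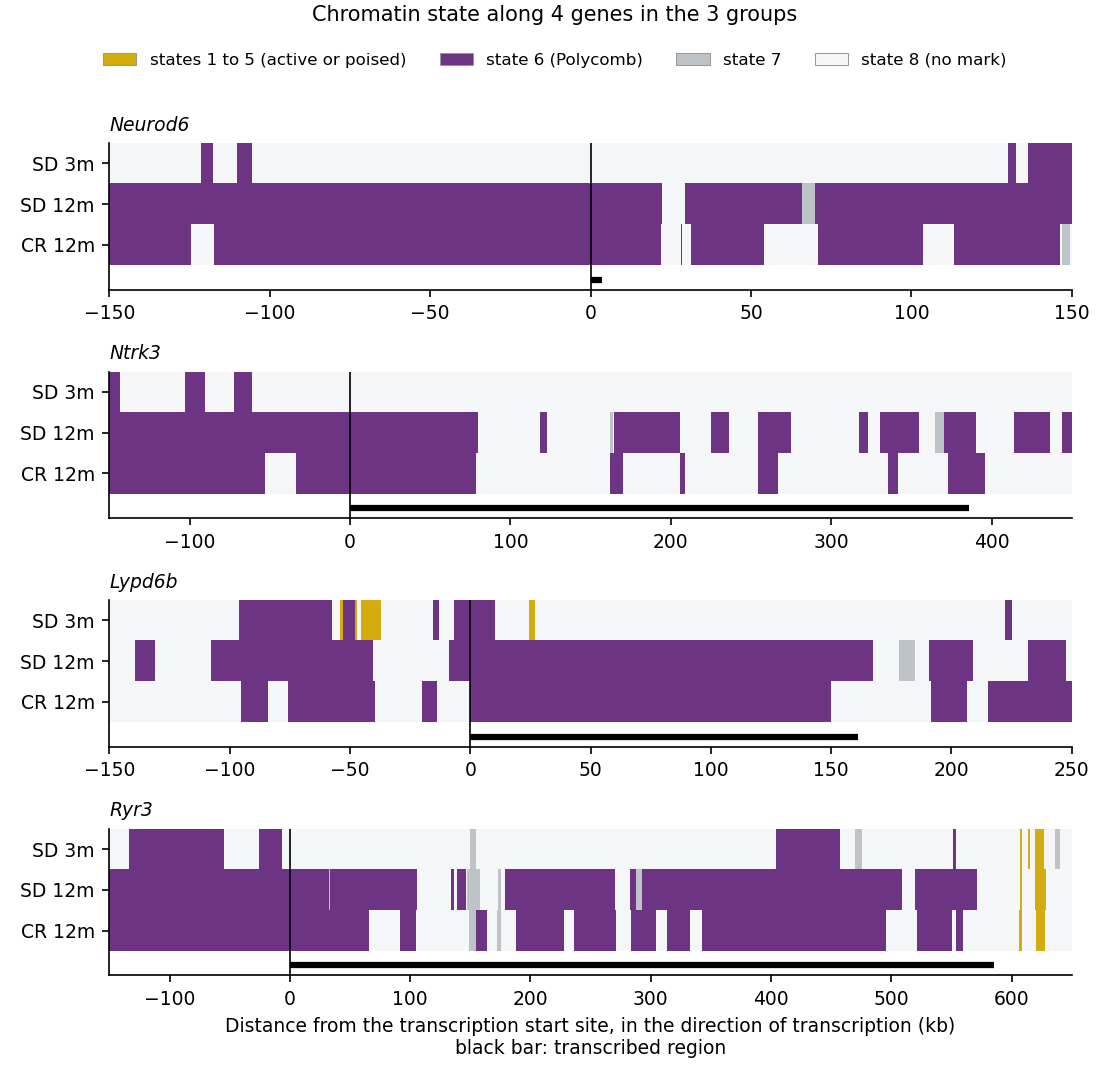
Chromatin state in SD 3m, SD 12m and CR 12m (rows) along Neurod6, Ntrk3, Lypd6b and Ryr3 against the distance from the TSS in the direction of transcription (kb), with the transcribed region as a black bar. State 6 (purple) covers 0% of the Ntrk3 body in SD 3m, and 52.6% and 31.2% in SD 12m and CR 12m, and 9.45%, 82.0% and 66.7% of the Ryr3 body. Bases in stretches are in state 6 in both later maps by the rule.

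Within gene bodies, the 10 genes with most stretch bases are described next. Ryr3, a calcium release channel of brain and muscle (chr2:112631380-113217083, minus strand), had 13 stretches over 54.2% of its body, and state 6 covered 9.45% of it in SD 3m, and 82.0% and 66.7% in SD 12m and CR 12m. Tmem178b, a transmembrane protein, had 73.6% of its body in stretches, and Hs3st4, a heparan sulfate sulfotransferase of neurons, 57.3%. Both had the TSS in state 6 in all 3 maps, with 3.75% and 4.95% of the body in state 6 in SD 3m. In these genes the young mark stood at the start and little of the body, and the later mark covered 77.6% of Tmem178b and 71.3% of Hs3st4 in CR 12m.

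The cell adhesion genes of this rank differed at their start sites. Opcml and Ntm, neighbouring genes of neuronal immunoglobulin-domain proteins, were both in state 8 at the TSS in SD 3m. At 12 months the TSS of Opcml was in state 6 in SD 12m and in state 8 in CR 12m, while that of Ntm was in state 6 in both. Tenm2, a synaptic adhesion protein, started in a stretch of 14600 bp and went from 7.89% of the body in state 6 to 64.8% and 47.8% in SD 12m and CR 12m. Asic2, an acid-sensing ion channel, Thsd7b, Kirrel3, a synaptic adhesion protein, and Anks1b, a postsynaptic scaffold, made up the rest, with 288200, 261297, 223800 and 222600 bp of the body in stretches. For all 10 bodies the SD 12m map had the higher share in state 6, although Kirrel3 had 57.1% and 56.4% in the 2 maps.

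Gene lists were read as counts of TSS in a stretch among TSS in state 8 in SD 3m, beside 11.9% for all protein-coding genes. Developmental factors stood highest. Homeobox and paired-box factors outside the Hox clusters had 7 of 9 (77.8%), among them Irx4, a ventricular heart factor, in a stretch of 36000 bp, Nkx6-3, Irx6 and Tlx3. Another 83 of the 107 genes of that list were already in state 6 at the TSS in SD 3m, so few could be gained. Other developmental transcription factors had 13 of 27 (48.1%), with Neurod6, Tfap2d, Msc and Tbx5 in the longest stretches. The Hox clusters had no TSS in state 8 in SD 3m, and 30, 33 and 31 of their 39 genes were in state 6 in SD 3m, SD 12m and CR 12m.

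Ion channels and transmitter receptors, which neurons use for excitation and synaptic signalling, were also above the share of all genes. Sodium and calcium channel genes had 8 of 17 (47.1%), with Cacna1a, Cacng2, Scn1a and Cacna2d2 leading by stretch length. Potassium channel genes had 18 of 43 (41.9%), with Kcna6 in a stretch of 28400 bp. Ionotropic receptors had 13 of 34 (38.2%), among them the glutamate receptor genes Gria2, Grik3, Grik1 and Gria1. Metabotropic receptors had 9 of 32 (28.1%), among them Htr4, Htr1a and Htr1b. The body of the serotonin receptor gene Htr1a lay wholly in its stretch, so its states were set by the rule. That of Htr1b, also a serotonin receptor gene, lay partly in its stretch. State 6 covered 55.2% of the Htr1b body in SD 3m and 100% in both later maps. The bases gained were the 2432 bp in the stretch, so this rise was set by the rule as well.

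For these channel and receptor lists the standard diet map had further gains at start sites. TSS that went from state 8 to state 6 in SD 12m only numbered 13 among potassium channels, 5 among sodium and calcium channels, 8 among ionotropic and 7 among metabotropic receptors. In CR 12m only, they numbered 0, 0, 1 and 1. Over all protein-coding genes the same counts were 511 and 190, so more in SD 12m was also the rule outside the lists. Over summed bodies of potassium channel genes, state 6 covered 11.3% of bases in SD 3m, and 28.1% and 20.8% in SD 12m and CR 12m, against 6.51%, 10.9% and 8.46% for all protein-coding genes. Stretches, in state 6 in both later maps by the rule, held 7.95% of these bases and 3.02% of those of all protein-coding genes.

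Lists of cell contact and signalling genes overlapped the channel and receptor lists in their shares. Collagen genes had 9 of 20 (45.0%), with Col1a2, a chain of fibrillar collagen made by stromal cells, Col24a1, Col6a5 and Col6a3, and none of the 20 was gained in 1 diet only. Axon guidance genes had 7 of 20 (35.0%), with Unc5c and Epha8, and Wnt, Fgf, Bmp and Gdf ligands had 6 of 17 (35.3%), with Fgf5 and Fgf6. Cadherins had 6 of 22 (27.3%), led by Cdh11, and synaptic adhesion genes 8 of 33 (24.2%), led by Ntm and Slitrk5. More TSS gained in CR 12m only than in SD 12m only were found in 3 lists: axon guidance (5 and 3), the Wnt, Fgf, Bmp and Gdf ligands (2 and 1) and cytochrome P450 genes (1 and 0).

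**Figure D5:**
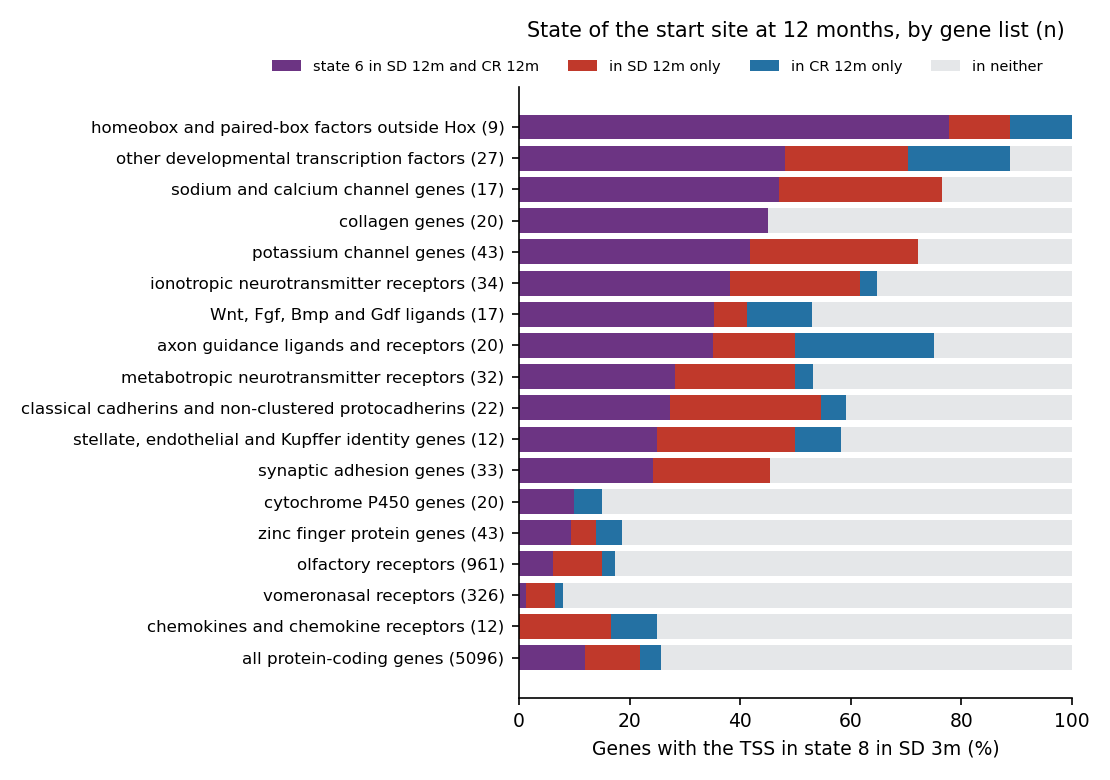
Genes with the TSS bin in state 8 in SD 3m (bars, %, number in brackets) by the state of that bin at 12 months, for the lists with 9 or more such genes and all protein-coding genes. State 6 in both maps ranges from 0 of 12 chemokine genes to 77.8% of 9 homeobox factors, with 11.9% of all genes.

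Sensory receptor families, silent in liver and packed in clusters, stood low. Olfactory receptors had 59 of 961 (6.14%) and vomeronasal receptors 4 of 326 (1.23%). The olfactory receptors Olfr449 and Olfr450 shared 1 stretch of 39600 bp and Olfr397 and Olfr398 shared another of 39400 bp, so the genes of a cluster are not separate cases. Zinc finger protein genes had 4 of 43 (9.30%) and cytochrome P450 genes 2 of 20, Cyp4x1 and Cyp26b1, the latter a retinoic acid hydroxylase. Start sites in state 8 at 3 months thus differed widely between families in the share that lay in stretches.

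Genes of secreted plasma proteins and of the Polycomb system itself gave no members. Of 69 hepatocyte plasma protein genes and 28 genes of Polycomb and H3K27 enzymes none had a TSS in state 8 in SD 3m, and no body held a base of a stretch. Ribosomal protein genes had 0 of 2, cyclin-dependent kinase inhibitors 0 of 1 and chemokines and their receptors 0 of 12. Markers of stellate, endothelial and Kupffer cells had 3 of 12, namely Marco, a scavenger receptor of Kupffer cells, Des, the stellate cell filament desmin, and Rgs5, a pericyte gene. Of all 32 of those markers, state 6 covered the TSS of 4 in the young map, of 12 in SD 12m and of 10 in CR 12m. Whether the share of these cells in the livers differed between groups was not tested.

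Promoters within stretches were richer in CpG than those that stayed unmarked. Over the 250 bases before the TSS the 605 genes had a median of 6 CpG (quartiles 2 and 16), against 2 (1 and 4) for the 2877 genes in state 8 in all maps, 3 (1 and 11) for the 497 that gained state 6 in SD 12m with state 8 in CR 12m, and 8 (3 and 18) for the 1223 in state 6 in all maps. A promoter was called CpG-rich at 50% GC or more and an observed to expected CpG ratio of 0.6 or more. By that measure 29.3% of the 605 were CpG-rich, against 7.06%, 20.3% and 33.9% of the other sets and 43.4% of all protein-coding genes. Without olfactory and vomeronasal receptors, which have few CpG, the values were 32.7% of 542 members and 9.60% of 2114 genes constant in state 8. Of the promoters printed above, Pcsk2 lay above the upper quartile of CpG number among the 605, Lhcgr and Neurod6 lay between the quartiles, and Tnni3k lay at the lower one.

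Among the 605 genes, CpG content differed with contact to old state 6. The 263 genes whose stretch touched state 6 of SD 3m had a median of 8 CpG and 35.7% CpG-rich promoters, and the 342 whose stretch did not touch had 5 and 24.3%. Both kinds were thus above the 7.06% of genes that stayed in state 8.

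The longest stretches without a TSS were found in introns and outside curated genes. That of Lypd6b, chr2:49814601-49937400, measured 122800 bp with 444 exon bases and lay 16.6 kb from the nearest state 6 of SD 3m. A stretch of 101800 bp, chr1:176153201-176255000, lay within Pld5, a phospholipase D family member, 196 kb from old state 6. On chromosome 13, chr13:107209801-107319400 filled 109600 bp between 2 pieces of old state 6, with no curated gene. The closest protein-coding TSS, that of Kif2a, was 242245 bp from its midpoint. On chromosome 2, chr2:94463001-94560400 held no annotated gene over 97400 bp and lay 172 kb from old state 6. Its closest protein-coding TSS, that of Api5, was 73514 bp from its midpoint. Of the 10 longest stretches, 3 touched state 6 of SD 3m.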

How the data were processed

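Formalin-fixed livers had been profiled by ChIP-seq for 4 histone marks. The authors aligned reads to mm10 with BWA 0.6.2-r126 and filtered them with SAMtools 0.1.18. They merged the libraries of each group, binarized them in 200 bp bins and trained a ChromHMM model with 8 states. The deposited files hold a state label per bin, with no read count, so depth and counting error per bin are unknown, and merging and smoothing by the model could shift edges. Bins per chromosome equalled the whole bins of GRCm38.p6, whose curated RefSeq transcripts gave genes and TSS (26089 genes, longest transcript each). Sequence, GC, CpG and masked repeats came from the same reference.

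Adjacent bins were merged in Python 3.11.15 with numpy 2.4.6, pandas 2.3.3, scipy 1.17.1 and matplotlib 3.10.9, and the code was tested on simulated segmentations with known stretches. Each group had 1 merged map, so counts, medians and ranges over autosomes are given without p-values. Members and gene lists were chosen with earlier results of these data known. Named genes are the 10 longest stretches and their genes, the 10 bodies with most stretch bases, the 10 TSS in the longest stretches, up to 4 genes per list by stretch length, and the 5 richest domains and blocks, except that one gene is not reported here. Alternatives covered the length limit, gaps, chromosome starts, bins near state boundaries, chromosome X and other TSS.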

Additional observations from a re-analysis of the deposited data

Results flagged for a closer look

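Chromosome X lies outside the autosomal rule, and its labels were examined for the same change. There, 10.1% of state 8 bins of SD 3m lay in stretches in state 6 in both 12-month maps, which is above each of the 19 autosomes, whose highest value was 9.36%. The chromosome held 1326 such stretches over 11.8 Mb, with a median length of 6600 bp against 6800 bp on autosomes. No replicate map was available, so the difference was not tested.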

How the results depend on the processing

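No paired analysis was possible because each group has 1 map of merged libraries, and leaving out a mouse or library was likewise not possible. Of 43 values under alternative settings, 29 stayed within 1.5 times the count or within the 95% Wilson interval of the share, which covers counting of bins or stretches only. The number of stretches (7043 to 9193) and of protein-coding TSS in them (502 to 651) stayed within 1.5 times under every setting. The share of state 8 bins in stretches, 4.76%, became 4.69% at 2 kb or more, 4.775% at 600 bp or more, 5.12% with chromosome X, 4.71% with the bins nearest (1 kb) to SD 3m state boundaries left out and 4.93% with 3 Mb at each chromosome start left out. The share with a TSS, 8.39%, became 9.165% with every curated transcript, 9.03% at 2 kb, 7.78% with chromosome X and 7.495% without bins near boundaries. The share over a gene body, 43.3%, became 40.8% with chromosome X. The share touching old state 6 became 43.98% with chromosome X, and the share within 5 kb of it, 46.9%, became 45.8% at 2 kb, 48.8% with chromosome X and 43.55% without bins near boundaries. Touching has no value in that last setting, which removes the bins that touch. Bridging gaps of 1 bin moved no value beyond these limits. Depth could not be judged from the labels.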

Other observations

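The opposite path, out of the state 6 of SD 3m and into state 8 under both diets at 12 months, was taken by 8172 autosomal stretches of 1 kb or more over 58.8 Mb, with a median of 5000 bp. With no length limit, it was taken by 256 of the 1999 protein-coding start sites in state 6 in SD 3m, and the path of gain by 607 of the 5096 in state 8. The 256 included 11 of 108 olfactory receptors and 4 of 10 chemokine or chemokine receptor genes. Of non-coding genes, 103 of 3220 long non-coding RNA genes (3.20%), 21 of 1136 microRNA genes (1.85%) and 0 of 122 small nucleolar RNA genes started in the stretches of gain, beside 3.02% of protein-coding genes.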
